A study of Mus musculus with 18 samples.

Results

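The genes of cholesterol and fatty acid synthesis, with their main regulators and sterol transporters, were followed in mouse splenic B cells activated by lipopolysaccharide (LPS, a bacterial cell wall component that drives B cells into division through a Toll-like receptor). The members were a list of 36 named genes, listed by what their products do, with earlier results of these data known, and 36 of the 36 were found among the 16545 genes of the table. They fall into 7 genes of the mevalonate pathway down to farnesyl diphosphate, 3 of squalene and lanosterol synthesis, 8 that turn lanosterol into cholesterol, 6 sterol regulators, 3 of sterol transport and efflux, and 9 of fatty acid synthesis and desaturation. All 36 were above 0 in every fit and were tested in every comparison, so no filter on low values removed a member.

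The study asked what the transcription factor Zbtb24 does in B cells, and sequenced RNA from purified splenic B cells at 0 h (resting), 24 h and 48 h of LPS from control and Zbtb24 B-CKO mice, with 3 libraries, 1 mouse each, in each of the 6 groups and 18 in all. Zbtb24 B-CKO mice are Zbtb24loxp/loxp on a C57BL/6 background and carry a Cre that is active in B cells, where it removes the exon with the translation start. The methods name Zbtb24+/+ littermates that carry the same Cre as controls, while the labels call the controls only CON. The ages and sexes of these mice are not given in the sources used here, and each group therefore differs from the others only in its time in LPS and in its Zbtb24 genotype, as far as the labels go.

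Cholesterol is built from acetyl-CoA through mevalonate, isoprenoid diphosphates, squalene and lanosterol. The genes for these enzymes are switched on by the SREBP transcription factors, the products of Srebf1 and Srebf2, which Scap carries out of the endoplasmic reticulum when sterols are low and which Insig1 and Insig2 hold back when sterols are high. The liver X receptors, of which LXRβ is the product of Nr1h2, act in the other direction: bound to oxysterols they switch on the efflux pumps Abca1 and Abcg1. Dividing lymphocytes are known to need new membrane sterol and fatty acid, and both arms are known to be regulated in lymphocyte activation.

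The labels were checked first. Levels are in FPKM, a read level scaled for transcript length and library size. In resting cells Zbtb24 was 37.1 to 49.6 FPKM in the control and 10.5 to 14.3 in the B-CKO libraries (log2 fold change of FPKM + 1 -1.78, adjusted p = 0.12, limma). After 24 h it was 15.7 to 18.8 against 10.4 to 11.7 (-0.64, adjusted p = 0.0586), and after 48 h 13.4 to 17.1 against 9.23 to 11.3 (-0.50, adjusted p = 0.267). The groups never overlapped, and the control level itself was lower after LPS. The 6 summed B cell markers, with Cd79a, Cd79b, Ms4a1 and Pax5 among them, were 3944 to 5230 FPKM at 0 h and 2045 to 2648 later. The 7 T cell markers summed to 21.7 to 31.7 FPKM at 0 h and 8.88 to 14.8 later, most of it Lck, while Cd4 was 0.36 to 0.53 FPKM in the resting control libraries. The 7 myeloid markers summed to 3.17 to 9.94 FPKM in all libraries, and the part of these cells in the results below was not tested. FPKM are shares of a library, and in bulk RNA fewer cells of a type and less RNA per cell cannot be told apart.

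Promoter sequences were read for the members, because many of them moved together. RefSeq (GRCm38.p6, the mm10 build used by the authors) gave a window for 28 of the 36, and the 250 bases before the annotated start were searched on both strands for the letters of 4 motifs. Those without a match were Fdps, Fdft1, Sqle, Stard4, Abcg1, Scd1, Scd2 and Fads1. The sterol regulatory element TCACNCCAC was in 1 of 28 member windows (3.57%), against 1.04% of all 27025 windows and 0.895% of 8158 windows of genes averaging 1 FPKM or more here. CCAAT, the box bound by NF-Y, was in 19 of 28 (67.9%), against 34.5% of all windows and 38.3% of those of expressed genes. The GC box GGGCGG was in 20 of 28 (71.4%, against 32.9% and 60.7%) and the E-box CACGTG in 4 of 28 (14.3%, against 6.05% and 8.99%). For genes with several windows the first listed was used, and each match was counted, also where matches share bases. A match of letters is a description and not a bound site.

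The 6 windows below are shown because they stand for the patterns that follow. Hmgcs1 alone held the sterol regulatory element, 137 bases before its start, and 3 CCAAT matches. Idi1 had one of the steepest rises on the first day. Msmo1 and Nsdhl belong to the demethylation steps, and Nsdhl had the smallest p of the members between genotypes at 48 h. Fasn rose and then fell, and Abca1 fell to below 0.4 FPKM on the first day. Capitals mark the sterol regulatory element and CCAAT or its reverse complement, which Abca1 lacks in this window. The windows are chr13:119690101-119690350 (plus strand) for Hmgcs1, chr13:8885356-8885605 (plus) for Idi1, chr8:64733579-64733828 (minus) for Msmo1, chrX:72918271-72918520 (plus) for Nsdhl, chr11:120824548-120824797 (minus) for Fasn and chr4:53159896-53160145 (minus) for Abca1, each printed 5′ to 3′ toward the gene.
Hmgcs1: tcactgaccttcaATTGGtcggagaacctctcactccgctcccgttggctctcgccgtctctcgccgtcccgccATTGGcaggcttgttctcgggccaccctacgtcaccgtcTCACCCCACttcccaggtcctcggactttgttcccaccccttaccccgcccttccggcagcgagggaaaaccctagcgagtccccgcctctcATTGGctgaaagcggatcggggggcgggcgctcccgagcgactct
Idi1: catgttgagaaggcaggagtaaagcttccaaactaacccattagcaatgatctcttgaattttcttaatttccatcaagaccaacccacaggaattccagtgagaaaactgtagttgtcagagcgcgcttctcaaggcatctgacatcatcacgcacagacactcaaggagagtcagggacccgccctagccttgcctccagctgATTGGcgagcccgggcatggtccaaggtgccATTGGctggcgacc
Msmo1: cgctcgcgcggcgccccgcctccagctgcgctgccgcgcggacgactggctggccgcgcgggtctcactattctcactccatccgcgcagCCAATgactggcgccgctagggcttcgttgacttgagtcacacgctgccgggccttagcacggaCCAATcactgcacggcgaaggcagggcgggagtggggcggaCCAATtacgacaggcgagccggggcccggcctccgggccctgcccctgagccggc
Nsdhl: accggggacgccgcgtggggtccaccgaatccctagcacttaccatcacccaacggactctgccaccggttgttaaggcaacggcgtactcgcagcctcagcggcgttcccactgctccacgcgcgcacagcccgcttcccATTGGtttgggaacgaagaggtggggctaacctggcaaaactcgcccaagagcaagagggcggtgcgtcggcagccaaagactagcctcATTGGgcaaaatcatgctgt
Fasn: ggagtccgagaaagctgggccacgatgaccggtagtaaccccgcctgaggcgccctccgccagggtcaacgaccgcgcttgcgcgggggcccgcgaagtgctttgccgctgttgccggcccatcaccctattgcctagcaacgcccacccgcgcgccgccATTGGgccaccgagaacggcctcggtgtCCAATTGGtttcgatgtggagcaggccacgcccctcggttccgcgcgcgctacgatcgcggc
Abca1: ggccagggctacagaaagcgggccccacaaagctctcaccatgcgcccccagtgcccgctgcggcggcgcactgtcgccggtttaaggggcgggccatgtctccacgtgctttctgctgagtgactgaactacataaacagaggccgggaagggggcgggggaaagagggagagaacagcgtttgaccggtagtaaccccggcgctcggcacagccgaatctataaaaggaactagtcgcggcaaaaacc
The CCAAT matches of Idi1 lie 45 and 14 bases before the start, those of Msmo1 160, 96 and 55, those of Nsdhl 109 and 20, and those of Fasn 90, 62 and 59.

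The first comparison asked how the pathway changed in the first 24 h of LPS. In control B cells 27 of the 36 genes rose and 5 fell at an adjusted p under 0.05 (limma on log2(FPKM + 1), Benjamini-Hochberg over all genes tested), where 26.7% of 15531 genes rose and 30.7% fell. The members' median log2 fold change was 1.18 (from -4.68 to 3.45), against -0.02 over all genes tested. In B-CKO cells 27 rose and 5 fell, against 27.5% and 32.3% of 15551 genes, with a median of 1.20. From 24 to 48 h, 29 members rose and 2 fell in control cells, against 20.1% and 24.8% of 15178 genes, with a median of 0.70. In B-CKO cells 30 rose and 2 fell in that step, against 21.7% and 24% of 15253 genes, with a median of 0.87. Over the whole 48 h, 31 rose and 4 fell in control cells, against 26.5% and 30.3% of 15584 genes, and 31 rose and 4 fell in B-CKO cells, against 27% and 30.7% of 15695 genes. The medians were 1.83 and 2.10. The 4 that were lower at 48 h than at rest were Nr1h2, Abca1, Abcg1 and Scd1 in both genotypes, and Scd1 (-0.53 ± 0.17 in control and -0.48 ± 0.15 in B-CKO cells) had an adjusted p of 0.0365 and 0.0273. That call for Scd1 was lost with median-of-ratios scaling (adjusted p = 0.093 and 0.0769). It was also lost without control library 2 at 0 h or any 1 of the 3 at 48 h (0.0785 to 0.107), and without B-CKO library 2 or 3 at 0 h or any 1 of the 3 at 48 h (0.0625 to 0.0862). Among the 31 that were higher over 48 h in control cells, Scap, Insig1 and Acss2 lost the call with TPM (0.0572 to 0.125). Insig1 also lost it without control library 2 at 0 h or any 1 of the 3 at 48 h (0.062 to 0.07), Acss2 without control library 1 or 2 at 48 h (0.0637 and 0.0729) and Sc5d without control library 2 at 0 h (0.054). Among the 31 in B-CKO cells, Scap lost the call with TPM (0.10, adjusted p = 0.39, against 0.31 as deposited). Insig2, not among the 31, was called higher in B-CKO cells with median-of-ratios scaling (adjusted p = 0.0364) and without B-CKO library 1 at 0 h (0.0144), as it did in control cells without library 1 at 0 h (0.00902). Successive steps share the 24 h libraries, so their values are not independent.

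In each genotype 22 of the 36 genes rose in both steps, against 6.13% of 14293 genes in control and 6% in B-CKO cells. The 2 calls of a gene, on the first and on the second day, were the same in both genotypes for 33 of the 36, and for 72.8% of all these genes. The others were Srebf1, called on the first day only in control cells, and Sc5d and Abca1, called in a step only in B-CKO cells, and no difference of these changes between genotypes was called.

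**Figure D1:**
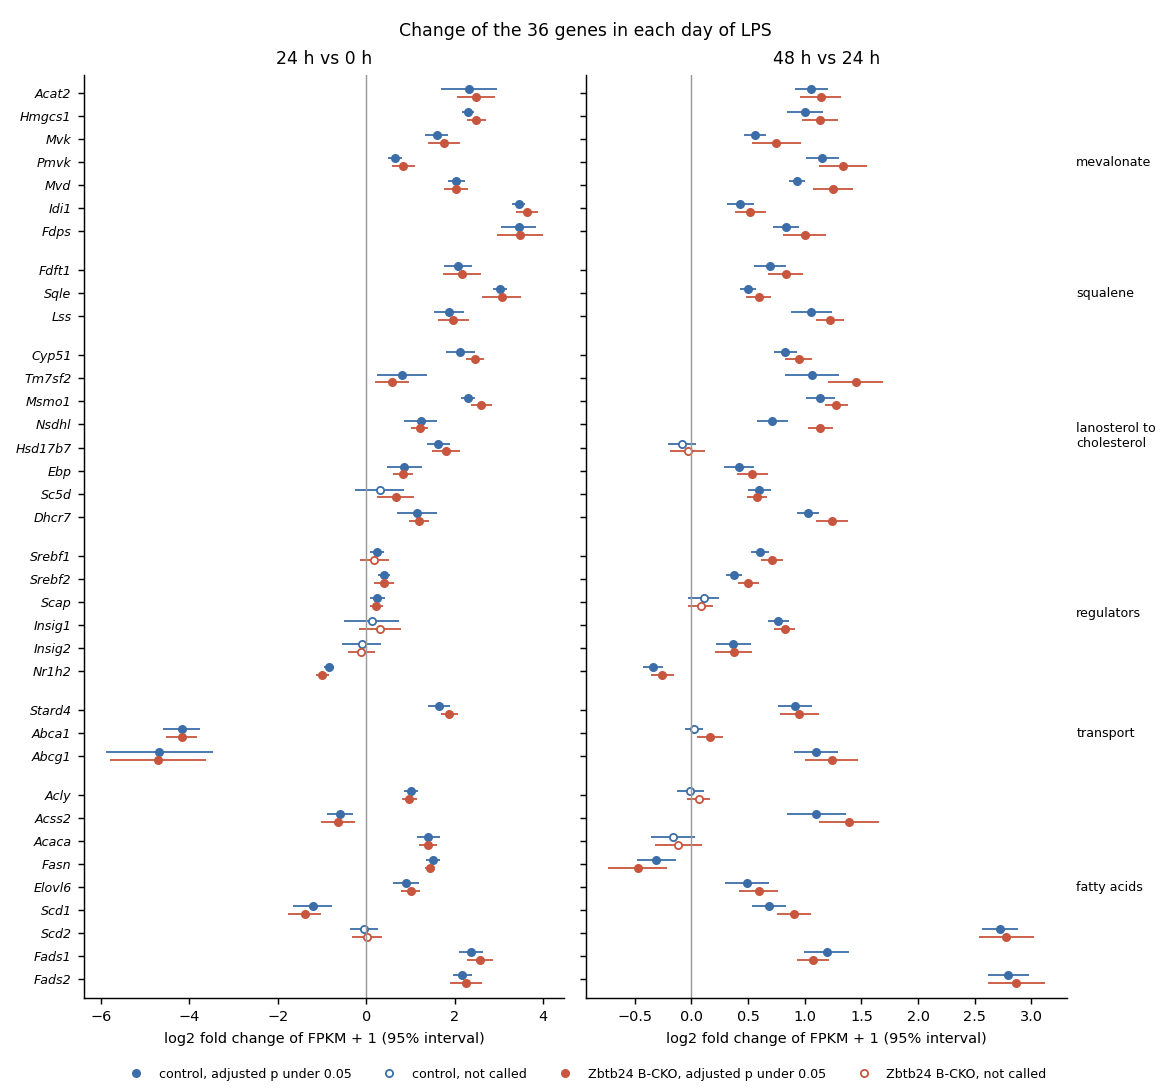
Log2 fold change of FPKM + 1 (horizontal axis) with its 95% interval for the 36 genes, from 0 to 24 h (left) and from 24 to 48 h (right), in control (blue) and Zbtb24 B-CKO (red) B cells, 3 libraries a group; filled points have an adjusted p under 0.05. Most sterol synthesis genes lie to the right of 0 in both steps, while Abca1, Abcg1, Nr1h2, Acss2 and Scd1 lie to the left on the first day.

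The 7 genes of the mevalonate pathway rose in both steps in both genotypes. Idi1, the isomerase that makes dimethylallyl diphosphate, was 9.39, 9.61 and 10.5 FPKM in the resting control libraries, 117, 118 and 116 at 24 h, then 153, 172 and 152 at 48 h. Its level at 24 h was 11.9 times that at 0 h (log2 fold change 3.45 ± 0.06 SE, adjusted p = 4.97e-06), and the second day added 0.43 ± 0.05. Most of its rise thus fell on the first day, and the libraries of one time hardly differed.

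Fdps, which joins isoprenoid units into farnesyl diphosphate, was 15.4, 12.3 and 9.38 FPKM at 0 h, 144, 143 and 137 at 24 h, then 246, 270 and 243 at 48 h in control cells. Its first-day change was 3.44 ± 0.16 and its second 0.83 ± 0.05. With a mean of 253 FPKM in control and 309 in B-CKO cells at 48 h, it stood second among the members in control cells and first in B-CKO cells.

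Hmgcs1, the cytosolic HMG-CoA synthase whose window held the sterol regulatory element, was 14.0, 14.0 and 14.1 FPKM in resting control cells, 76.1, 73.2 and 69.7 at 24 h, then 138, 162 and 142 at 48 h. The changes were 2.30 ± 0.06 and 1.00 ± 0.07. In B-CKO cells the same gene went from 14.6, 11.7 and 12.3 FPKM through 77.9, 72.3 and 78.9 to 181, 171 and 154. No resting library of either genotype came near a stimulated one.

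Acat2, which condenses acetyl-CoA to acetoacetyl-CoA, changed by 2.32 ± 0.26 and 1.06 ± 0.06 in control cells. Mvd, the decarboxylase that makes isopentenyl diphosphate, changed by 2.03 ± 0.08 and 0.93 ± 0.03. The kinases differed in timing: Mvk changed by 1.60 ± 0.11 on the first day and 0.56 ± 0.04 on the second, while Pmvk changed by 0.64 ± 0.07 and then by 1.16 ± 0.06. Pmvk was the 1 gene of the 7 in control cells whose second step was larger than its first.

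Of the squalene and lanosterol genes, 3 of 3 rose in both steps in both genotypes. Sqle, squalene epoxidase, was 6.27, 6.80 and 7.17 FPKM at 0 h, 62.0, 60.7 and 61.9 at 24 h, then 89.5, 86.9 and 85.3 at 48 h in control cells, with changes of 3.01 ± 0.07 and 0.50 ± 0.03. Fdft1, squalene synthase and the branch point toward sterols, changed by 2.07 ± 0.13 and 0.69 ± 0.06, and Lss, lanosterol synthase, by 1.87 ± 0.14 and 1.06 ± 0.08. Of the 3, Sqle had the largest first step and the smallest second one. The annotated span of Fdft1 shares 774 bases with Ctsb, and whether counting used strand is not given in the sources used here.

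**Figure D2:**
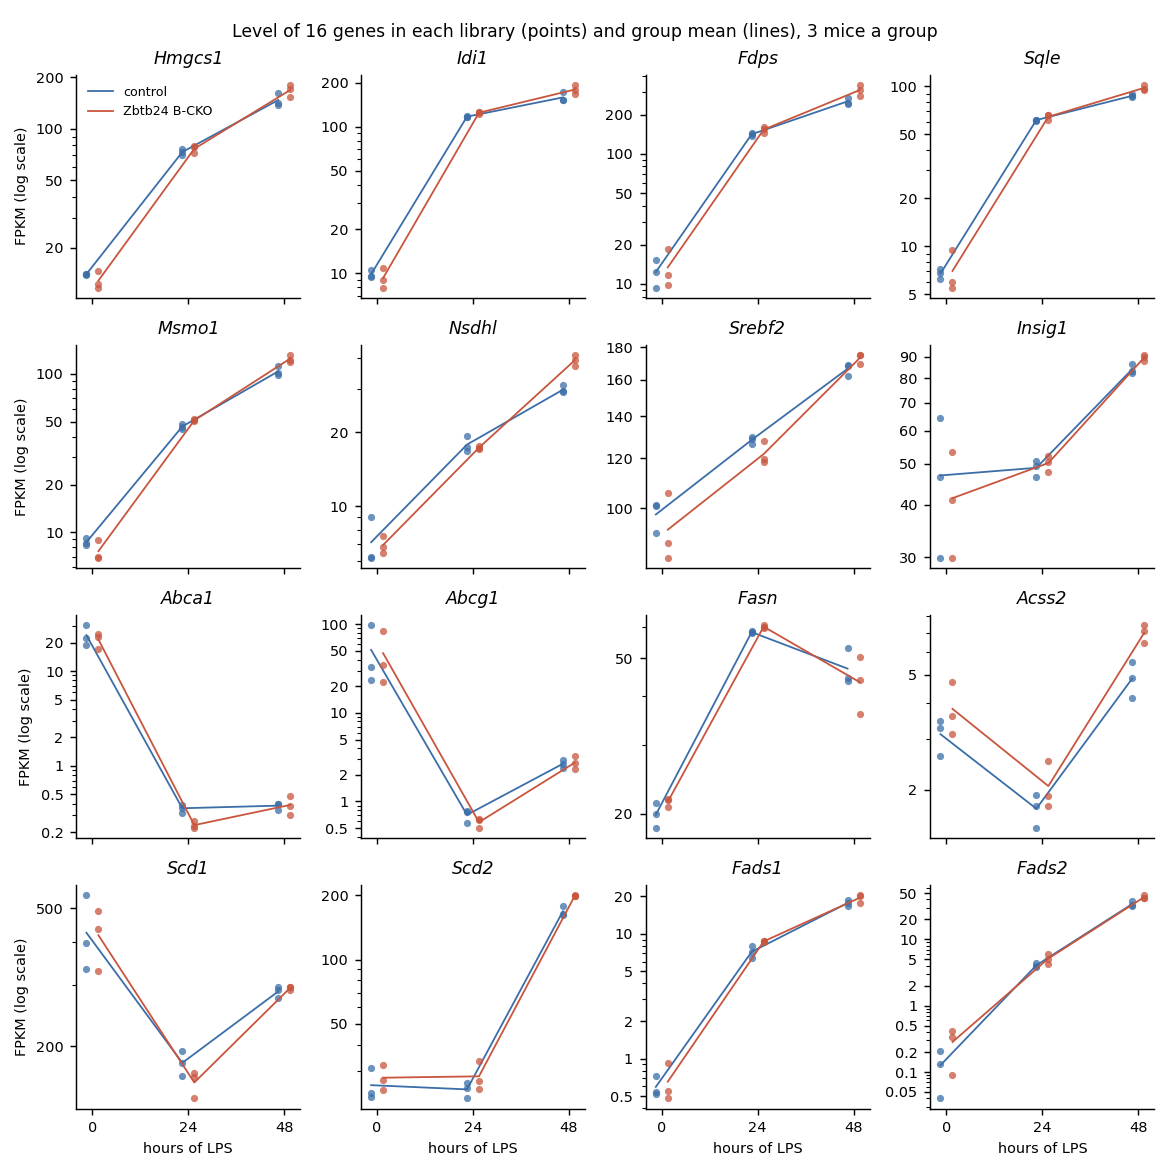
FPKM on a log axis against hours of LPS for 16 of the genes; points are single libraries of control (blue) and Zbtb24 B-CKO (red) mice, 3 a group, and lines join group means. Idi1, Fdps and Sqle rise mostly by 24 h, Scd2 only after 24 h, Abca1 and Abcg1 drop by 24 h, and Scd1 dips and partly returns.

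Of the 8 genes that turn lanosterol into cholesterol, 7 rose on the first day in control cells and 8 in B-CKO cells. The largest changes were those of Msmo1, the methylsterol monooxygenase, and Cyp51, the lanosterol demethylase. Msmo1 was 8.34, 9.12 and 8.49 FPKM at 0 h, 48.3, 45.1 and 46.2 at 24 h, then 98.5, 112 and 101 at 48 h in control cells, with changes of 2.30 ± 0.06 and 1.14 ± 0.05. Cyp51 was 8.55, 10.3 and 12.7 FPKM, then 50.01, 48.1 and 48.3, then 85.8, 93.1 and 83.9, with changes of 2.13 ± 0.13 and 0.83 ± 0.04. Both rose further on the second day by less than on the first.

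Nsdhl, the X-linked sterol dehydrogenase of the same demethylation steps, was 6.21, 9.02 and 6.16 FPKM at 0 h, 19.3, 17.5 and 16.7 at 24 h, then 29.0, 31.0 and 29.3 at 48 h in control cells. Its changes were 1.23 ± 0.15 and 0.71 ± 0.06. Dhcr7, the reductase that completes cholesterol, changed by 1.14 ± 0.19 and 1.03 ± 0.04, and Ebp, the sterol isomerase, by 0.86 ± 0.16 and 0.42 ± 0.05. Tm7sf2, a sterol reductase, was 3.56, 1.92 and 1.64 FPKM at 0 h, 4.96, 3.93 and 5.39 at 24 h, then 10.9, 11.4 and 10.6 at 48 h. Its first-day change of 0.81 ± 0.23 (adjusted p = 0.0235) lost the call in 4 of the 6 fits that left out 1 library, without control library 2 or 3 at 0 h or control library 1 or 3 at 24 h, where the adjusted p was 0.0608 to 0.0809. In B-CKO cells the change was 0.58 ± 0.16 (adjusted p = 0.0193), lost without B-CKO library 3 at 0 h or library 1 or 3 at 24 h (0.0554 to 0.0684).

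Hsd17b7, a keto-sterol reductase, rose by 1.63 ± 0.10 on the first day and did not pass the test on the second (-0.08 ± 0.05, adjusted p = 0.251). Sc5d, the sterol desaturase, was 16.1, 18.4 and 30.8 FPKM in resting control libraries and 25.9, 26.5 and 25.8 at 24 h, so that the groups overlapped (0.30 ± 0.23, adjusted p = 0.301). Without control library 3 at 0 h the value was 0.57 ± 0.07 (adjusted p = 0.0015). In B-CKO cells Sc5d changed by 0.66 ± 0.18 (adjusted p = 0.017), a call lost without B-CKO library 2 at 0 h or any 1 of the 3 at 24 h (adjusted p 0.0512 to 0.0633).

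The 6 sterol regulators moved in both directions. Srebf2, the SREBP of cholesterol synthesis, was 101, 101 and 91.4 FPKM at 0 h, 129, 126 and 130 at 24 h, then 162, 168 and 169 at 48 h in control cells, and it rose in both steps, by 0.39 ± 0.06 and 0.37 ± 0.03. Srebf1, the SREBP known mainly for fatty acid genes, changed by 0.25 ± 0.06 (adjusted p = 0.0163) and 0.60 ± 0.03. Scap changed by 0.25 ± 0.07 (adjusted p = 0.0247) and 0.11 ± 0.06 (adjusted p = 0.174). Both first-day calls were weak. Without control library 1 or 3 at 24 h that of Srebf1 had an adjusted p of 0.062 or 0.0736, and without control library 2 at 0 h or any 1 of the 3 at 24 h that of Scap had one of 0.0504 to 0.0974. With the replicate number, which marks a mouse, as a block, that of Scap was 0.0612. In B-CKO cells Scap changed by 0.22 ± 0.06 (adjusted p = 0.0192), lost without library 1 or 3 at 24 h (0.0769 and 0.0779). With each library rescaled to TPM (transcripts per library total) the first-day values of Srebf1 and Scap were 0.09 and 0.09, with an adjusted p of 0.315 and 0.366, and in B-CKO cells Srebf2 and Scap lost their first-day call in the same way (0.0586 and 0.425).

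Insig1, the SREBP brake that SREBP itself switches on, was spread over 29.9, 46.6 and 64.4 FPKM in resting control libraries and was 50.7, 46.7 and 49.5 at 24 h, then 86.7, 83.0 and 82.5 at 48 h. It did not pass the test on the first day (0.12 ± 0.26, adjusted p = 0.702), and on the second it rose by 0.77 ± 0.04. Insig2 was 4.93 to 8.35 FPKM at 0 h and 7.17 to 7.85 at 48 h in control cells, its first-day value was -0.11 ± 0.18 (adjusted p = 0.636), and on the second day it rose by 0.37 ± 0.06, a call that the single fit of all 18 libraries lost in control and B-CKO cells (adjusted p = 0.0625 and 0.0538). Nr1h2, the gene of LXRβ, fell in both steps: it was 79.3, 76.5 and 76.1 FPKM at 0 h, 43.4, 42.7 and 41.9 at 24 h, then 32.0, 34.0 and 34.4 at 48 h in control cells (-0.84 ± 0.05 and -0.34 ± 0.04). In B-CKO cells its changes were -0.99 ± 0.06 and -0.26 ± 0.04.

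Among the 3 transport genes, the efflux pumps and the sterol carrier went opposite ways. Abca1, the pump that loads cholesterol onto apolipoprotein A-I, was 19.1, 22.2 and 30.5 FPKM in resting control cells and 0.39, 0.36 and 0.32 at 24 h, a mean of 0.0149 times the resting one. Its log2 fold change of FPKM + 1 was -4.17 ± 0.18 (adjusted p = 1.04e-05). The level at 48 h in control cells was 0.40, 0.34 and 0.40. In B-CKO cells Abca1 rose on the second day by 0.16 ± 0.05 (adjusted p = 0.0302), a call lost in the single fit of all 18 libraries (0.468), without any 1 of the 3 B-CKO libraries at 24 h and without library 3 at 48 h (0.0648 to 0.0965).

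Abcg1, the pump for HDL, was 23.4, 33.4 and 97.7 FPKM in resting control cells, 0.78, 0.57 and 0.77 at 24 h, then 2.66, 2.40 and 2.93 at 48 h. It fell by 4.68 ± 0.50 (adjusted p = 0.000338) on the first day and rose by 1.10 ± 0.08 on the second, to 0.0517 times its resting mean, or 0.0939 times without control library 3 at 0 h. In a single fit of all 18 libraries, where the spread of the resting ones enters, the second-day rise was not called (adjusted p = 0.0841). Without the library of number 3 at 0 h the first-day value was -4.09 ± 0.17. Stard4, a soluble carrier of sterols between membranes, was 4.51, 5.83 and 5.48 FPKM, then 19.5, 18.5 and 17.9, then 34.4, 39.5 and 34.2, with changes of 1.65 ± 0.10 and 0.91 ± 0.06. At these low stimulated levels of the pumps the fold change of FPKM + 1 understates the change.

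The 9 fatty acid genes did not move as one. On the first day 6 rose and 2 fell in both genotypes, and on the second 6 rose and 1 fell. Acly, which makes cytosolic acetyl-CoA from citrate, Acaca, the acetyl-CoA carboxylase, and Fasn, fatty acid synthase, rose on the first day and not on the second. Fasn was 19.96, 18.4 and 21.3 FPKM at 0 h, 58.7, 57.9 and 58.4 at 24 h, then 44.4, 53.1 and 43.7 at 48 h in control cells, so it rose by 1.51 ± 0.07 and then fell by 0.31 ± 0.07 (adjusted p = 0.0125). In B-CKO cells it went from 21.8, 21.7 and 20.8 FPKM through 60.3, 59.7 and 60.8 to 43.9, 50.4 and 36.1. Acly changed by 1.01 ± 0.06 and -0.01 ± 0.05, and Acaca by 1.41 ± 0.10 and -0.16 ± 0.08. Without library 2 at 48 h the second-day value of Acaca was called lower in control (-0.25, adjusted p = 0.00911) and B-CKO cells (-0.20, adjusted p = 0.042), and without B-CKO library 3 at 48 h that of Acly was called higher (0.10, adjusted p = 0.0487).

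The desaturases rose in different steps. Fads1 and Fads2, which desaturate polyunsaturated fatty acids and are neighbours on chromosome 19, were nearly absent at rest. Fads2 was 0.13, 0.21 and 0.04 FPKM at 0 h, 3.93, 3.82 and 4.44 at 24 h, then 31.8, 37.5 and 33.2 at 48 h in control cells, and it rose by 2.17 ± 0.09 and 2.80 ± 0.08 on the scale of FPKM + 1. That scale shrinks the first step of so low a gene: the ratios of means were 32.1 on the first day and 8.41 on the second, the other order. Fads1 was 0.52, 0.72 and 0.54 FPKM, then 6.40, 7.15 and 7.99, then 16.6, 18.8 and 17.5, with changes of 2.36 ± 0.11 and 1.19 ± 0.08. Of the 36 members, Fads2 had the largest change over 48 h in control cells (4.96 ± 0.12).

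Scd1 and Scd2, close paralogs that make monounsaturated fatty acids and also lie together on chromosome 19, went separate ways. Scd1 had the highest level of the members in resting control cells, at 334, 397 and 544 FPKM, was 194, 164 and 179 at 24 h, then 296, 291 and 276 at 48 h. It fell by 1.22 ± 0.18 (adjusted p = 0.00146) and then rose by 0.68 ± 0.06. Scd2 was 31.0, 23.8 and 22.7 FPKM at 0 h, 25.1, 22.4 and 26.5 at 24 h (-0.05 ± 0.13, adjusted p = 0.753) and 164, 178 and 162 at 48 h, a rise of 2.72 ± 0.07 on the second day. Reads of the pair may have been split by the estimation, so single values of each carry that limit.

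Acss2, which makes acetyl-CoA from acetate, was 3.45, 3.27 and 2.61 FPKM at 0 h, 1.92, 1.76 and 1.47 at 24 h, then 4.86, 5.54 and 4.15 at 48 h in control cells. It fell by 0.60 ± 0.12 (adjusted p = 0.00593) and then rose by 1.10 ± 0.11, and its 24 h libraries were below all others of the control group. Elovl6, the elongase that makes stearate, rose in both steps from 0.54 to 1.03 FPKM at rest to 3.06 to 3.79 at 48 h (0.90 ± 0.12 and 0.49 ± 0.08).

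Genes around the pathway that are no members were counted the same way in the control 24 h against 0 h fit. Over all genes 26.7% rose and 30.7% fell. In the isoprenoid branch and prenylation list, 9 of 13 rose and 1 fell, led by Pdss1, which starts the ubiquinone tail (2.09 ± 0.09), Rabggtb (1.01 ± 0.08) and Pggt1b (0.97 ± 0.10), subunits of prenyl transferases. From 24 to 48 h, when 29 of the 36 members rose, 1 of these 13 rose and 10 fell, against 20.1% and 24.8% of all genes. In the sterol uptake, storage and trafficking list 2 of 12 rose and 4 fell, which is near the share of all genes. Tmem97 went from a mean of 4.38 to 48.4 FPKM (3.20 ± 0.09) and Scarb1, the HDL receptor, from 4.66 to 18.7 (1.80 ± 0.09), while Gramd1a, which moves sterol out of the plasma membrane, fell by 1.87 ± 0.17. In the list of SREBP processing and sterol-regulated degradation 2 of 11 rose and 4 fell, also near that share, among them the ubiquitin ligase Rnf145 (-1.32 ± 0.08) and Aup1, a factor of the same degradation route (-0.55 ± 0.06).

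In the list of LXR and oxysterol genes 2 of 11 rose and 7 fell, against 26.7% and 30.7% of all genes. Cyp27a1, which makes an oxysterol, went from a mean of 11.1 to 0.377 FPKM (-3.13 ± 0.14). Mylip, a ubiquitin ligase known as an LXR target, went from 53.7 to 5.67 FPKM (-2.99 ± 0.22), and Smpdl3a, another known LXR target, from 13.2 to 1.34 (-2.59 ± 0.14). In B-CKO cells, where 27.5% of all genes rose and 32.3% fell, the first-day counts were 8 rising and 4 falling of 13 isoprenoid genes, 3 and 6 of 12 uptake genes, 2 and 4 of 11 SREBP processing genes and 2 and 8 of 11 LXR and oxysterol genes. From 24 to 48 h, against 20.1% and 24.8% of all genes in control cells, 7 of the 12 uptake, storage and trafficking genes rose and 0 fell, 1 of the 11 SREBP processing genes rose and 4 fell, and 4 of the 10 LXR and oxysterol genes tested rose and 0 fell. Against 21.7% and 24% in B-CKO cells, the same lists had 6 and 0 of 12, 0 and 4 of 11, and 4 and 0 of 11, and 1 of the 13 isoprenoid genes rose and 6 fell. In control cells on the first day the 3 named LXR and oxysterol genes, picked for the largest changes, fell, as did Abca1 and Abcg1. Nr1h2 was then at 0.552 times its resting mean, and 2 of the 11 listed genes rose. A link between Nr1h2 and these falls was not tested.

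The resting libraries differed among themselves more than the stimulated ones, and by replicate number. The median SD of log2(FPKM + 1) over genes was 0.17 and 0.16 in the resting control and B-CKO groups and 0.05 to 0.09 in the others. At 0 h, 18 of the 36 members had the same number highest and the same number lowest in both genotypes, where 46.4% of the 9997 genes averaging 1 FPKM or more did. At 24 h it was 12 members (21.3% of the genes) and at 48 h 9 members (23.7%). At 0 h the members' share, 50%, was near that of all genes, so it is no result about the members.

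Among the members with the same order in both genotypes, that order ran both ways. The share of all genes with each order was not counted, so these orders are no result about the members either. Abcg1, Abca1, Scd1, Insig1 and Sc5d were highest in number 3 and lowest in number 1 in both genotypes. For Abcg1 the B-CKO libraries read 22.2, 34.8 and 84.8 FPKM beside the control 23.4, 33.4 and 97.7. Insig1 read 29.9, 41.1 and 53.4 beside 29.9, 46.6 and 64.4. Acat2, Fdps, Fdft1, Lss, Ebp, Dhcr7, Nr1h2, Acly and Scd2 were highest in number 1 and lowest in number 3, and Fdps read 18.7, 11.7 and 9.87 FPKM in B-CKO beside 15.4, 12.3 and 9.38 in control cells. The B cell marker sum was 5230, 4827 and 4072 FPKM for control numbers 1, 2 and 3 and 5034, 3944 and 4113 for B-CKO, and the erythroid sum was 10.9, 11.9 and 30.2 and 24.8, 9 and 52.8. The part of these in the order was not tested. Without the number 3 library at 0 h, 27 members rose and 5 fell on the first day in control and in B-CKO cells. The counts equal those with it, but the members differ: Tm7sf2 lost its call in both genotypes, while Sc5d gained one in control and Insig1 (0.51 ± 0.14, adjusted p = 0.0279) in B-CKO cells.

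**Figure D3:**
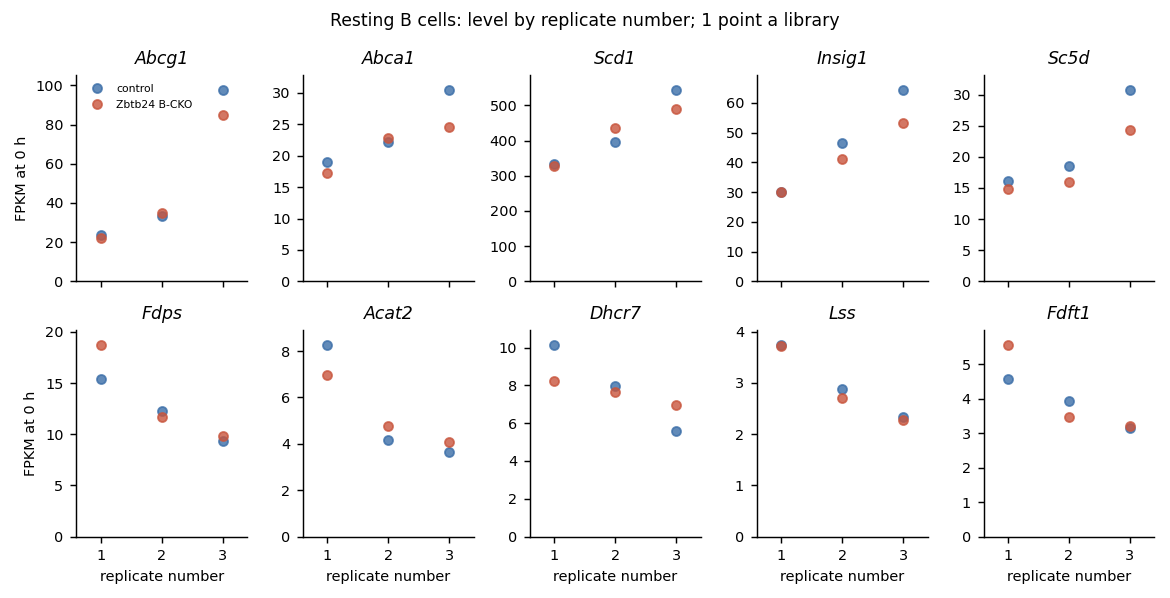
FPKM at 0 h (vertical axis, from 0) by replicate number for 10 of the genes, 1 point a library, control in blue and Zbtb24 B-CKO in red. In the upper row both genotypes are highest in number 3, up to 97.7 FPKM for Abcg1, and in the lower row both are highest in number 1.

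The genotype comparison asked whether loss of Zbtb24 changed these genes. At an adjusted p under 0.05 (limma) no member was called between B-CKO and control cells in resting or stimulated cells. In resting cells 0% of genes were called higher and 0% lower. After 24 h it was 0.0132% higher and 0.0861% lower, and after 48 h 0.00657% higher and 0.0394% lower. With so few genes called at all, an adjusted p here says little about a shift shared by many genes, so the members with an unadjusted p under 0.05 were counted beside the same count over all genes tested. At 0 h it was 0 members higher and 0 lower, against 0.901% and 1.1% of 15641 genes. At 24 h it was 9 higher and 2 lower, against 6.79% and 9.51% of 15104 genes. At 48 h it was 23 higher and 0 lower, against 3.57% and 4.14% of 15210 genes. The members were measured in the same libraries and many moved together over time, so they are not independent of each other. These counts, and those without overlap below, therefore describe the members and do not measure how unusual a shared shift is.

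At 0 h the signs were even, with 18 of 36 positive and a median of 0.00. The smallest p was that of Fads2 (0.18 ± 0.11, adjusted p = 1, limma), at 0.42, 0.09 and 0.34 FPKM in B-CKO and 0.13, 0.21 and 0.04 in control cells. With the replicate number as a block, which the number-wise spread at 0 h calls for, Sc5d alone had an unadjusted p under 0.05 (-0.22 ± 0.06, adjusted p = 0.843).

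At 24 h the differences were small: among the 11 members with an unadjusted p under 0.05 they ran from -0.13 to 0.25. Sc5d was 28.5, 28.4 and 29.5 FPKM in B-CKO and 25.9, 26.5 and 25.8 in control cells (0.14 ± 0.03, adjusted p = 0.0991). Abca1 was 0.22, 0.26 and 0.23 against 0.39, 0.36 and 0.32 FPKM (-0.13 ± 0.03, adjusted p = 0.113), and Nr1h2 was 40.8, 39.0 and 38.2 against 43.4, 42.7 and 41.9 (-0.12 ± 0.03, adjusted p = 0.154). These groups did not overlap, but the differences did not pass the adjusted test. The others were Msmo1 (0.13), Cyp51 (0.16), Idi1 (0.09), Fads1 (0.25), Elovl6 (0.17), Stard4 (0.16), Acat2 (0.19) and Fdps (0.12), all with higher B-CKO means. In a single fit of all 18 libraries 2 members were higher at this p, against 1.43% of genes, and without control library 2 at 24 h 5 were higher and 4 lower. Among the non-member lists, 1 of 13 isoprenoid and 2 of 12 uptake genes were higher at this p and 0 lower. Of the 10 LXR and oxysterol genes tested 1 was higher and 3 lower, and of 11 SREBP processing genes 0 passed. Over all genes it was 6.79% higher and 9.51% lower, and the difference between the lists was not tested.

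At 48 h 34 of the 36 values were positive, with a median of 0.19 against -0.01 over all genes tested. By role, the members with an unadjusted p under 0.05 were 7 of 7 of the mevalonate genes, 3 of 3 of the squalene and lanosterol genes, 7 of 8 of the genes from lanosterol to cholesterol, 1 of 6 regulators (Insig1), 1 of 3 transport genes (Stard4) and 4 of 9 fatty acid genes (Acss2, Elovl6, Scd2 and Fads2). In 21 of the 36 the B-CKO libraries were all above the control ones and in 0 all below, against 4.89% and 6.24% of genes.

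Nsdhl was 39.4, 37.2 and 41.3 FPKM in B-CKO and 29.0, 31.0 and 29.3 in control cells at 48 h (0.39 ± 0.05, 95% interval 0.27 to 0.51, adjusted p = 0.123). Every B-CKO library was above every control one. Tested only among genes averaging 1 FPKM or more, its adjusted p was 0.0268. Over all the alternatives it ran from 0.0268 to 0.47.

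Mvd was 89.0, 75.3 and 91.9 FPKM in B-CKO and 63.7, 67.0 and 65.0 in control cells (0.38 ± 0.08, adjusted p = 0.243). Acss2 had the largest difference, at 7.42, 7.10 and 6.42 against 4.86, 5.54 and 4.15 FPKM (0.45 ± 0.11, adjusted p = 0.331). Fads2 was 45.9, 42.3 and 42.3 against 31.8, 37.5 and 33.2 FPKM (0.34 ± 0.07, adjusted p = 0.243), and Scd2 was 199, 200 and 199 against 164, 178 and 162 (0.24 ± 0.04, adjusted p = 0.194). All 4 had groups without overlap.

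Cyp51 was 111, 102 and 104 FPKM in B-CKO against 85.8, 93.1 and 83.9 in control cells (0.27 ± 0.05, adjusted p = 0.243), and Msmo1 was 132, 120 and 123 against 98.5, 112 and 101 (0.27 ± 0.06, adjusted p = 0.327). The other members under that p were Dhcr7 (0.25), Fdft1 (0.27), Sqle (0.16), Tm7sf2 (0.31), Acat2 (0.27), Fdps (0.28), Mvk (0.28), Elovl6 (0.28), Lss (0.24), Pmvk (0.26), Stard4 (0.20), Insig1 (0.09), Sc5d (0.12), Ebp (0.17), Idi1 (0.18) and Hmgcs1 (0.19). The 2 negative values were those of Fasn (-0.12) and Nr1h2 (-0.03). No member passed the adjusted test. The non-member lists were counted at the same unadjusted p under 0.05 at 48 h. It was passed by 0 of 13 isoprenoid and prenylation genes, 0 of 12 uptake, storage and trafficking genes and 0 of 11 SREBP processing genes. Of the 11 LXR and oxysterol genes 1 was higher and 1 lower. Of 23 other genes of fatty acid elongation, activation and lipid assembly 5 were higher and 2 lower. Of 14 fatty acid oxidation genes 1 was higher and 0 lower. Over all genes it was 3.57% and 4.14%, and the difference between the lists was not tested.

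The 48 h count depended on the spread used: a single fit of all 18 libraries gave 11 members higher, against 2.22% of genes, and leaving out 1 library gave 15 to 21, with 15 without control library 1 and 15 without B-CKO library 1. The T cell marker sum was 12.3 to 12.8 FPKM in control and 8.88 to 10.1 in B-CKO libraries at 48 h, the plasma cell sum 140 to 250 and 170 to 198, and the part of these was not tested.

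**Figure D4:**
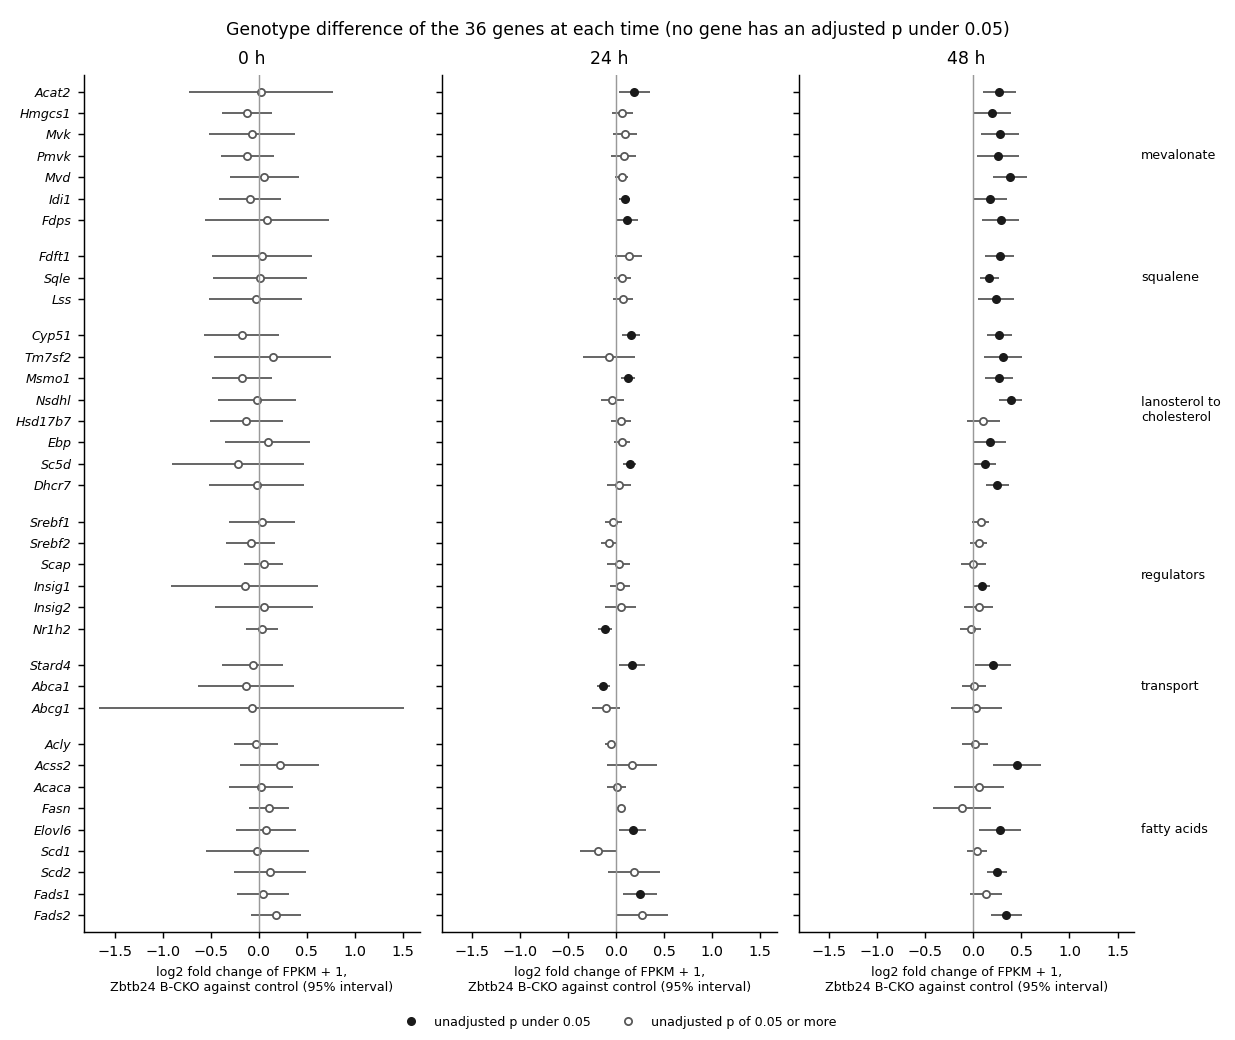
Log2 fold change of FPKM + 1 of Zbtb24 B-CKO against control B cells (horizontal axis, same scale in the 3 panels) with 95% intervals at 0, 24 and 48 h of LPS, 3 libraries a group; filled points have an unadjusted p under 0.05 and no gene has an adjusted p under 0.05. At 48 h the cholesterol synthesis genes lie to the right of 0, at 0.10 to 0.39, while at 0 h the values scatter around 0 with wide intervals.

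Whether the change over time differed between genotypes was tested directly. For 0 to 24 h no member was called, as for 0% of genes in either direction. At an unadjusted p under 0.05 there was 1 higher, Msmo1 (0.30 ± 0.12), and 1 lower, Nr1h2 (-0.15 ± 0.07), each with an adjusted p of 1, against 1.38% and 1.51% of 16182 genes. The higher count was 0 without control library 2 at 0 h or 24 h and without B-CKO library 2 or 3 at 0 h or 3 at 24 h, 3 without control library 1 at 0 h and 7 without B-CKO library 1 at 0 h. For 24 to 48 h no member was called either, and 7 had an unadjusted p under 0.05 with a larger change in B-CKO cells and 0 with a smaller one, against 3.93% and 3.38% of 15844 genes. They were Nsdhl (0.42 ± 0.07, adjusted p = 0.399), Mvd (0.32 ± 0.09, adjusted p = 0.53), Tm7sf2 (0.39 ± 0.15), Dhcr7 (0.21 ± 0.07), Srebf2 (0.13 ± 0.05), Scd1 (0.22 ± 0.10) and Abca1 (0.14 ± 0.06), the others with an adjusted p of 0.61 to 0.673. The count of 7 was 4 with TPM, 2 in the single fit of all 18 libraries, 4 without control library 1 at 24 h and 11 without control library 2 at 48 h. Without B-CKO library 2 at 48 h, 1 member had a smaller change at that p and Mvd was called (0.41, adjusted p = 0.035), and over all its alternatives its adjusted p ran from 0.035 to 1.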

How the data were processed

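RNA-seq of mouse splenic B cells was analysed from the deposited table of FPKM. Per the labels and the study's methods, the authors mapped reads to mm10 with Bowtie2 and estimated FPKM with Cufflinks and RSEM; the submitters' processing notes also name BWA and DESeq2. The counts behind the FPKM were not used here. Only 44.3% of low values lay within 0.1 of a whole step, so reads were not recovered and depth is unknown. Of 16545 NCBI gene IDs, 16512 matched a RefSeq symbol.

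Values were taken as log2(FPKM + 1) and fitted with limma 3.58.1 (R 4.3.3, eBayes with trend), only the groups compared, over genes above 0 in any of their libraries. P-values were adjusted by Benjamini-Hochberg over all of these, with 0.05 as threshold. Errors are SE. Per the methods each replicate is 1 mouse, so p-values measure the spread between 3 mice. The fit was also run on simulated data. These had independent noise and no shift shared by replicate number. Their planted changes were larger than the members' genotype differences, so detection of differences of that size was not tested. Every member is accounted for; in genotype comparisons those with an unadjusted p under 0.05 are named, or the 1 with the smallest, and in other lists up to 3 called genes with the largest change at 24 h. The members and lists were chosen with earlier results of these data known. Some genes that this rule would name are not reported here. Srebf1, Tm7sf2, Fdft1 and Acaca overlap other genes of the table.

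Same-numbered libraries deviated together for B-CKO against control at 0 h (correlations 0.854, 0.468 and 0.789) and for B-CKO 48 h against 24 h (0.126, 0.183 and 0.117), so the replicate block was applied there too. Within a genotype a number marks a mouse by the methods and titles, so the block was also applied to the comparisons over time. What the same number shares across genotypes is not given in the sources used here. The alternatives tried were another pseudocount, a filter, TPM, median-of-ratios scaling, a replicate block, 1 fit of 18 libraries and leaving out each library.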

Additional observations from a re-analysis of the deposited data

How the results depend on the processing

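Of 3169 values of single members under the alternatives, 3090 kept their direction and their side of the threshold, 54 lost a call, 10 gained one and 15 changed sign, and none of those 15 was called before or after. They were Insig1 in control cells from 0 to 24 h (-0.038 with TPM, -0.16 to 0.38 when 1 library was left out), Insig2 (-0.24 to 0.089 when 1 library was left out), Scd2 (0.014 with median-of-ratios scaling, -0.14 to 0.081), Acly from 24 to 48 h (0.032 with median-of-ratios scaling, -0.063 to 0.020), and, in B-CKO cells, Insig2 (-0.20 to 0.0035), Scd2 (-0.15 with TPM, -0.10 to 0.12) and Hsd17b7 (0.00027 with median-of-ratios scaling, -0.075 to 0.022).

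Counts of members called over time stayed within 1.5 times under every alternative. With a pseudocount of 0.1 the median changes were 1.43 and 2.12 in control cells (0 to 24 h and 0 to 48 h) and 1.40 and 2.36 in B-CKO cells, since low genes then count for more. The genotype median at 0 h was -0.016 over genes averaging 1 FPKM or more and -0.012 with TPM, and -0.071 to 0.052 when 1 library was left out. Its unadjusted counts were 0 to 1 higher under left-out libraries, and 1 lower with the replicate block and with the single fit of 18 libraries.

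At 24 h the unadjusted counts were 5 to 13 higher and 2 to 4 lower under left-out libraries, 4 lower with TPM and with the replicate block (11 higher with the block), and 2 higher and 1 lower with the single fit. At 48 h 1 member, Nsdhl (0.39), was called among genes averaging 1 FPKM or more, and the unadjusted count was 11 with the single fit, 21 with the replicate block and 15 to 21 with 1 library left out. For the difference in the 0 to 24 h change the counts were 0 to 7 higher and 0 to 1 lower under left-out libraries, with a median of -0.0099 to 0.13, 0 lower with a pseudocount of 0.1, with the filter and with TPM, and 2 higher with the single fit. For the 24 to 48 h change they were 4 higher with TPM, 2 with the single fit, and 4 to 11 higher and 0 to 1 lower under left-out libraries, with 0 to 1 member called, Mvd (0.41). Over time the replicate block took 1 call, that of Scap on the first day in control cells (adjusted p = 0.0612, limma), and changed no other. Apart from the comparisons in which all same-numbered libraries correlated above 0.1, those correlations were -0.087 to 0.23. The cause of these shifts was not tested.

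FPKM give no read counts, so no counting error can be set beside the low values of Fads2, Abca1 and Abcg1. The resting libraries sum to 453150 to 472676 FPKM and the others to 515196 to 563456, which is what TPM rescales. With 3 mice a group, intervals of genotype differences at 0 h span a wide range, and a p that misses the threshold does not show equal levels.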

Other observations

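Fatty acid oxidation and lipid assembly, which lie outside the synthesis genes, were also counted in control cells from 0 to 24 h. Of 14 oxidation genes 11 rose and 2 fell, against 26.7% and 30.7% of all genes tested. Etfa and Etfb, the subunits of the flavoprotein that takes electrons from fatty acid oxidation, went from means of 22.9 to 65.4 and 30.2 to 83.7 FPKM (1.48 ± 0.08 and 1.44 ± 0.07), while Cpt1a, which admits fatty acids to mitochondria, went from 26.3 to 7.57 FPKM (-1.59 ± 0.29, adjusted p = 0.00365, limma). From 24 to 48 h 3 of the 14 rose and 3 fell, near the 20.1% and 24.8% of all genes.

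Of 23 other genes of elongation, activation and lipid assembly, 11 rose and 4 fell in the first 24 h, against the same 26.7% and 30.7%. Mecr, of mitochondrial fatty acid synthesis, changed by 1.53 ± 0.07 and Slc25a1, the citrate carrier that feeds Acly, by 1.27 ± 0.08, while Dgat1, which makes triglyceride, fell by 1.80 ± 0.22. No gene of either list was called between genotypes at 0, 24 or 48 h, and at an unadjusted p under 0.05 there were 5 of the 23 higher and 2 lower at 48 h, and 1 of the 14 higher, against 3.57% and 4.14% of all genes. At 24 h it was 5 of the 23 higher and 0 lower, and 1 of the 14 higher and 0 lower, against 6.79% and 9.51%.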
